A study of Homo sapiens with 46 samples.

Results

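TCOF1 was depleted in undifferentiated H1 cells, an established human embryonic stem cell line, and the comparison was read in 6 of the 46 libraries of the study. They are 1 mRNA and 1 ribosome footprint library from cells that received a short hairpin RNA against TCOF1 (shTCOF1), and 2 mRNA and 2 footprint libraries from cells that received a control hairpin (shControl). The libraries were chosen by their titles. All cells were H1, grown without feeders in mTESR1 and infected with a lentivirus. The study also holds cells with a hairpin against KBTBD8 (shKBTBD8) and cells taken after 1, 3 or 6 days of neural conversion (ND1, ND3 and ND6). The libraries form 2 sets that differ in how their titles are written, and both shTCOF1 stages (hES and ND3) belong to the second. The second set also holds 1 shKBTBD8 library per assay at hES and at ND3 and 1 shControl library per assay at ND3.

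TCOF1 encodes treacle, a phosphoprotein of the nucleolus that binds RNA polymerase I and its factor UBF and is needed for ribosomal RNA synthesis. Loss of a working copy causes Treacher Collins syndrome, a disorder of the facial skeleton that arises in neural crest, the embryonic cells that form much of the face. Treacle is also a substrate of KBTBD8, an adaptor of the CUL3 ubiquitin ligase. Ribosomes protect the stretch of mRNA they sit on when the rest is digested with RNase I, and these footprints were sequenced. A footprint level divided by the mRNA level is thus a measure of how heavily a transcript is loaded with ribosomes, relative to other transcripts.

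The knockdown has 1 library per assay, 1 hairpin name and no replicate. The labels call the control libraries replicates of each other and do not say that they came from separate cultures. The p-values rest on scatter pooled over all replicated groups in the fit. Most of these groups belong to the first set and to other stages or shKBTBD8. That scatter may be technical. The labels do not say whether 1 culture gave both assays. The deposited identifiers carry no gene names, so the level of TCOF1 itself and the markers of undifferentiated and other cells are not reported here, and the knockdown and the cell type rest on the labels. In bulk RNA, fewer cells of a type and less RNA per cell cannot be told apart. Depth, counted on 1 row per transcript, was 11.3 and 23.8 M counts for the mRNA controls and 22.9 M for shTCOF1. In footprints it was 5.29 and 6.41 M for the controls and 7.93 M for shTCOF1. Footprint control replicate 2 stood apart: 16.4% of transcripts had no count there, against 2.86% in replicate 1 and 6.71% in shTCOF1, while no mRNA library of the comparison exceeded 0.588%.

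The first question was how far undifferentiated cells with shTCOF1 differed from control cells in mRNA. The shTCOF1 library was as close to each control as the controls were to each other. Across the 14950 transcripts that averaged 50 counts or more over the 3 libraries, Pearson's r of log2 CPM (counts scaled to a common library size, on a log scale) was 0.989 and 0.987 between shTCOF1 and control replicates 1 and 2, and 0.987 between the controls. The difference of shTCOF1 from the mean of the controls had an SD of 0.24 (log2) across transcripts. Taken against each control alone the SD was 0.27 with replicate 1 and 0.29 with replicate 2, and that of the difference between the controls was 0.30. In 5140 transcripts (34.4%) the shTCOF1 level lay between the control levels. No transcript passed edgeR's quasi-likelihood test, 0 of 17665 (0%), with the lone shTCOF1 library assumed to vary like the replicated groups. The smallest adjusted p was 0.146 in that edgeR test, 624 transcripts (3.53%) had an unadjusted p under 0.05, and DESeq2 called 6, all higher. The median standard error of a change was 0.24 (log2).

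Few transcripts lay well outside the control range in mRNA. Those at least 2-fold (1 on the log2 scale) beyond both controls numbered 8 higher (0.0535%) and 8 lower (0.0535%). Being beyond both is a stricter condition than a difference between a pair of libraries. Pair by pair, shTCOF1 differed 2-fold from replicate 1 in 74 transcripts and from replicate 2 in 111, and the controls from each other in 147 (0.983%). At 1.5-fold (0.58 on the log2 scale) the counts were 72 higher (0.482%) and 107 lower (0.716%), and 906 (6.06%) differed by that much between the controls. In 5 equal classes of abundance, all 8 transcripts lower by 2-fold belonged to the lowest, where mean counts were 50 to 151. The 8 higher ones were spread over the lower 4 classes, with 3, 2, 2 and 1. Differences ran from -1.70 to 1.95 (log2).

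The second question was the same for ribosome footprints, which were noisier. Pearson's r over 10817 transcripts was 0.971 between shTCOF1 and control replicate 1, 0.911 between shTCOF1 and replicate 2, and 0.920 between the controls. The SD of the shTCOF1 difference was 0.47 (log2) and that of the difference between the controls 0.68. Taken against each control alone, the SD was 0.40 with replicate 1 and 0.72 with replicate 2, the library with many transcripts at 0. Footprint levels lay at least 2-fold beyond both controls for 21 higher (0.194%) and 88 lower transcripts (0.814%). Pair by pair, shTCOF1 differed 2-fold from replicate 1 in 250 and from replicate 2 in 1344, and the controls from each other in 1228 (11.4%), so the large counts are those that involve replicate 2. Of the 88, 59 belonged to the lowest class of abundance and 21 to the next. No transcript passed edgeR, 0 of 17436 (0%), with a smallest adjusted p of 0.616 and 281 (1.61%) at an unadjusted p under 0.05, and DESeq2 called 1, lower. Without control replicate 1, when replicate 2 is the only control, edgeR called 66 (63 higher and 3 lower).

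**Figure D1:**
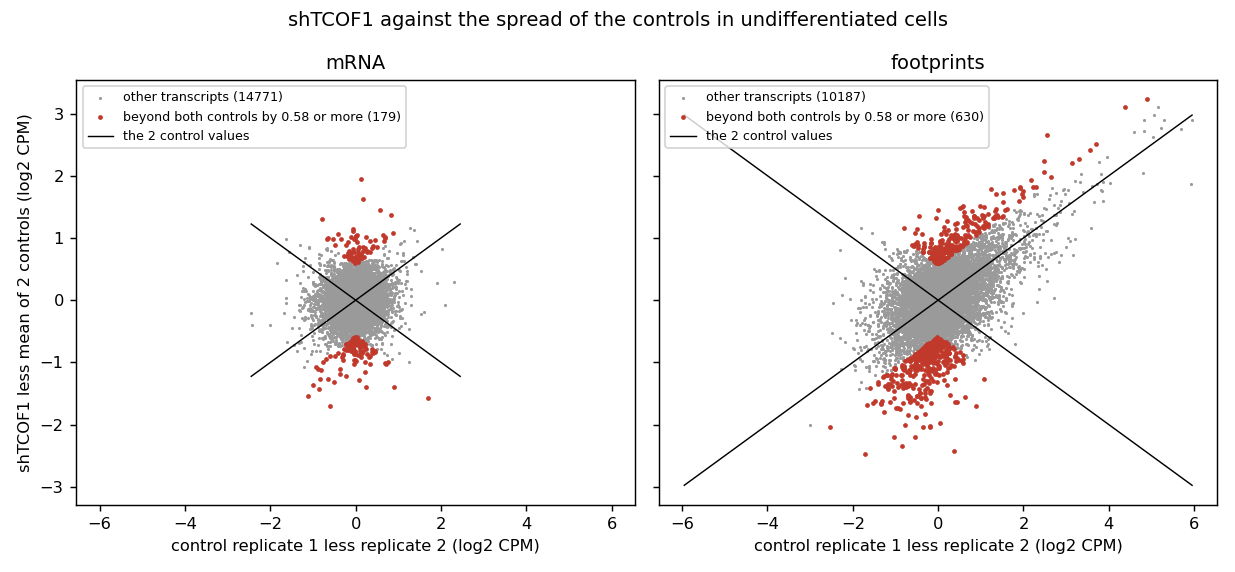
Each point is a transcript that averaged 50 counts or more. The vertical axis is the shTCOF1 level less the mean of the 2 controls and the horizontal axis the difference between the controls (both log2 CPM), and the lines mark the 2 control values. The red points, at least 0.58 beyond both controls, number 179 in mRNA and 630 in footprints.

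The third question was whether ribosome loading differed, as the footprint change less the mRNA change. No transcript passed the edgeR interaction test, 0 of 17680 (0%), with 607 (3.43%) at an unadjusted p under 0.05, and DESeq2 called 3 (1 higher and 2 lower). The median standard error of this difference was 0.73 (log2), so for a transcript with that error a change of 1 (log2) is smaller than 2 errors. For the 10749 transcripts measured in both assays, footprint CPM over mRNA CPM had a median (log2) of 0.14 in shTCOF1 and 0.12 and 0.09 in the controls. Control libraries of the 2 assays were paired by replicate number. Each library was scaled within its own assay, so a change in loading shared by all transcripts could not show in the test or these medians. Without footprint control replicate 1 the edgeR count was 427 (381 higher and 46 lower).

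Transcripts that stood apart in mRNA mostly had a footprint difference of the same sign, in separate libraries, and a minority lay 1.5-fold beyond both controls there too. Of the 72 transcripts higher by 1.5-fold in mRNA, 33 had enough footprint counts, and 31 of these (93.9%) had a positive footprint difference, against 54.6% of all 10749 transcripts. Of the 107 lower ones, 40 had enough counts and 37 (92.5%) had a negative difference, against 45.4% of all. The median footprint difference was 0.66 (log2) for the 33 and -0.63 for the 40, and 10 of the 33 and 15 of the 40 were 1.5-fold beyond both footprint controls in that direction. Going the other way, footprints lay 1.5-fold beyond both controls for 258 higher (2.39%) and 372 lower (3.44%) transcripts, while 29.1% differed by that much between the controls. Of those measured in mRNA, 157 of 253 higher ones (62.1%) were positive there, against 50.3% of all, and 217 of 366 lower ones (59.3%) were negative, against 49.7%. Across all 10749 transcripts Pearson's r between the mRNA and the footprint difference was 0.25, a description over transcripts that share libraries and are not replicates.

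The same transcripts could be followed at ND3, where 1 shTCOF1 library was set against 1 control library and no library was shared with hES. Of the 72 transcripts higher in mRNA at hES, 47 (65.3%) had a positive difference at ND3, against 49.2% of all 14950, with a median of 0.18 (log2). Of the 107 lower ones, 68 (63.6%) had a negative difference, against 50.8% of all, with a median of -0.15. Of the transcripts picked from footprints at 1.5-fold, 131 of 258 higher ones (50.8%) were positive at ND3, against 53.1% of all, and 186 of 372 lower ones (50%) were negative, against 46.8%. The few picked at 2-fold gave another picture: in mRNA 7 of 8 higher ones were positive at ND3 but 3 of 8 lower ones negative, and in footprints 14 of 21 higher ones (66.7%) were positive and 44 of 88 lower ones negative. Across all transcripts, r between the hES and the ND3 difference was 0.10 in mRNA and 0.0016 in footprints.

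At least 1.5-fold beyond both controls in both assays were 10 higher and 15 lower transcripts of 10749. With 100 or more counts on average and a difference over 3 times that between the controls in each assay, 4 higher and 6 lower ones were left. By row the 6 lower ones fell into 3 runs of rows within 10 of each other, and the 4 higher ones into 3 runs. The largest mRNA difference in each direction picked the 4 identifiers below. They were chosen after their values were seen, and none passed edgeR, so their levels are a description.

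The lower identifier with the largest mRNA difference was uc003lry.3, whose deposited length value is 1469 in a unit that is not stated. Its mRNA level was 175.9 and 179.9 CPM in the control replicates (mean 177.9 ± 2.81, SD, n = 2) and 91.8 CPM in the shTCOF1 library. Its footprint level was 153.9 and 174.1 CPM in the controls and 51.9 CPM in shTCOF1. The shTCOF1 library lay below both controls in both assays by more than the controls differed, as the limits that picked this identifier require. The edgeR log2 change was -0.95 ± 0.23 (SE) in mRNA, with an adjusted p of 0.808, and -1.66 ± 0.34 in footprints, with an adjusted p of 0.616. By DESeq2 the footprint change was -1.69 with an adjusted p of 0.00193. By edgeR it was -1.75 with replicate 2 as the only control and -1.56 with replicate 1 as the only control. In the second set alone it was -1.67 and did not pass edgeR. With the hES controls of both sets as 1 group it was -1.89 and did not pass either (edgeR, adjusted p = 0.094). Relative to mRNA, footprints differed by -0.68 ± 0.37 (log2, edgeR, adjusted p = 1.0).

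At ND3 uc003lry.3 was lower again with shTCOF1. Its mRNA level was 87.8 CPM against 158.8 CPM in the control, and its footprint level 58.2 against 133.1 CPM. The ND3 change was -0.85 ± 0.26 in mRNA and -1.19 ± 0.37 in footprints (edgeR, log2 ± SE, adjusted p = 0.470 and 0.390). The difference between the hES and the ND3 change was -0.10 ± 0.34 in mRNA and -0.47 ± 0.49 in footprints, within its own error (edgeR, adjusted p = 1.0 for both). With shKBTBD8 at hES the levels were 156.9 CPM in mRNA and 122.6 CPM in footprints, both below the second-set controls and above shTCOF1. The direct difference of shTCOF1 from shKBTBD8 was -0.77 ± 0.26 in mRNA (edgeR, adjusted p = 0.374) and -1.24 ± 0.37 in footprints (edgeR, adjusted p = 0.900). The hES controls of the first set were higher still, at 263.6 and 229.6 CPM in mRNA and 255.9 and 186.5 CPM in footprints. The first-set shKBTBD8 libraries at hES were not lower than these by their means. Those means were 247.1 CPM in mRNA and 257.9 CPM in footprints, against 246.6 and 221.2 CPM in the first-set controls. In that set its mRNA fell by 0.69 (log2) in control cells from hES to ND3 (edgeR, adjusted p = 0.00715).

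The adjacent row of the files, uc003lrw.3 (length value 939), was lower too. Its mRNA level was 115.5 and 116.0 CPM in the controls and 63.2 CPM in shTCOF1, and its footprint level 106.7 and 80.5 CPM against 38.4 CPM. The log2 change was -0.87 ± 0.24 in mRNA (edgeR, adjusted p = 0.963) and -1.29 ± 0.36 in footprints (edgeR, adjusted p = 1.0). At ND3 its levels with shTCOF1 and control were 57.4 and 101.1 CPM in mRNA and 40.5 and 74.9 CPM in footprints. Another transcript, 5 rows from uc003lry.3 and with a length value of 424, had 44.3 and 45.1 CPM of mRNA in the controls and 25.1 CPM in shTCOF1. In footprints it had 51.4 and 49.6 CPM against 12.6 CPM. The other transcripts within 10 rows of uc003lry.3 lay nearer 0: those at -2, 7 and 9 rows had mRNA changes of -0.13, 0.16 and 0.13, and those at 7 and 9 rows footprint changes of 0.17 and 0.11 (log2). Further off, 10 rows before uc003lrw.3, another transcript had an mRNA difference of -0.69 (log2), beyond both controls by 1.5-fold or more. These rows were compared by their counts over all libraries, as described under processing, and were not joined. Whether they share part of their reads was not tested, so the 3 lower transcripts may not be independent measurements.

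**Figure D2:**
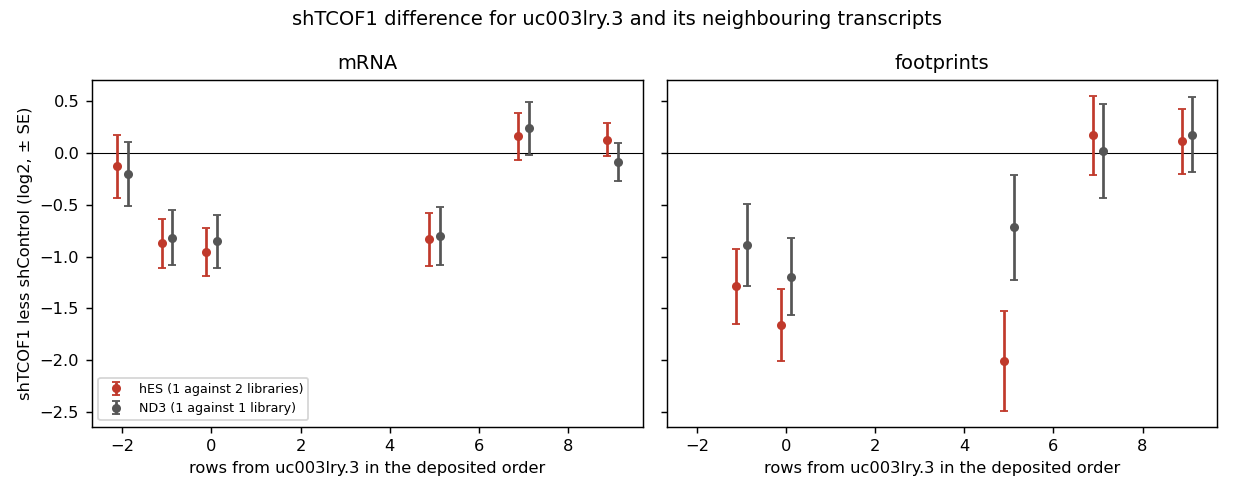
The edgeR log2 change of shTCOF1 from shControl (points, with the standard error as bars) is plotted for every transcript within 10 rows of uc003lry.3 against its distance in rows, at hES in red and at ND3 in grey. In mRNA the transcripts at -1, 0 and 5 rows lie between -0.80 and -0.95 at both stages, while the others lie between -0.20 and 0.23.

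The higher identifier with the largest mRNA difference was uc001dle.3 (length value 362). Its mRNA level was 6.89 and 6.78 CPM in the controls, or 79 and 165 counts, and 14.2 CPM, or 333 counts, in shTCOF1. Its footprint level was 28.2 and 23.7 CPM in the controls and 51.2 CPM in shTCOF1. The shTCOF1 library was above both second-set controls in each assay, as the same limits require. It was also above the first-set hES controls, at 8.23 and 9.96 CPM in mRNA and 38.8 and 44.2 CPM in footprints, though by less. With second-set shKBTBD8 at hES the mRNA level was 11.9 CPM, also above both second-set controls, and the footprint level 25.8 CPM, between them. The first-set shKBTBD8 libraries at hES had 12.1 and 9.92 CPM in mRNA. In footprints they had 52.7 and 38.5 CPM, the first of these above the shTCOF1 level. From second-set shKBTBD8, shTCOF1 differed by 0.26 ± 0.27 in mRNA and 0.99 ± 0.61 in footprints (edgeR, log2 ± SE, adjusted p = 0.946 and 1.0). The log2 change was 1.06 ± 0.24 in mRNA (edgeR, adjusted p = 0.608) and 0.98 ± 0.51 in footprints (edgeR, adjusted p = 1.0). At ND3 the mRNA level was 9.96 CPM with shTCOF1 and 8.88 CPM in the control, and the footprint level 38.1 and 46 CPM, the control being the higher. The hES change less the ND3 change was 0.89 ± 0.37 in mRNA and 1.25 ± 0.79 in footprints and did not pass the test (edgeR, log2 ± SE, adjusted p = 1.0 for both).

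The other higher identifier was uc002xfm.2 (length value 99). The transcript 1 row before it was higher too, by 0.85 in mRNA and 0.78 in footprints (log2), and 1.5-fold or more beyond both controls in each assay. These rows were not joined by the count comparison either. Whether they share part of their reads was not tested, so they may not be independent measurements. The mRNA level of uc002xfm.2 was 19.6 and 19.4 CPM in the controls and 37.5 CPM in shTCOF1, and its footprint level 58.2 and 47.0 CPM against 106.2 CPM. The log2 change was 0.95 ± 0.31 in mRNA and 1.01 ± 0.37 in footprints (edgeR, adjusted p = 1.0 for both). The shKBTBD8 library at hES was also above both controls, with 30.1 CPM in mRNA and 106.9 CPM in footprints, and shTCOF1 differed from it by 0.32 ± 0.36 and -0.01 ± 0.44 (edgeR, log2 ± SE, adjusted p = 0.951 and 1.0). At ND3 the levels with shTCOF1 and control were 24.4 and 29.8 CPM in mRNA and 87.0 and 84.9 CPM in footprints. The hES change less the ND3 change was 1.24 ± 0.47 in mRNA and 0.98 ± 0.58 in footprints and did not pass either (edgeR, adjusted p = 1.0 for both).

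**Figure D3:**
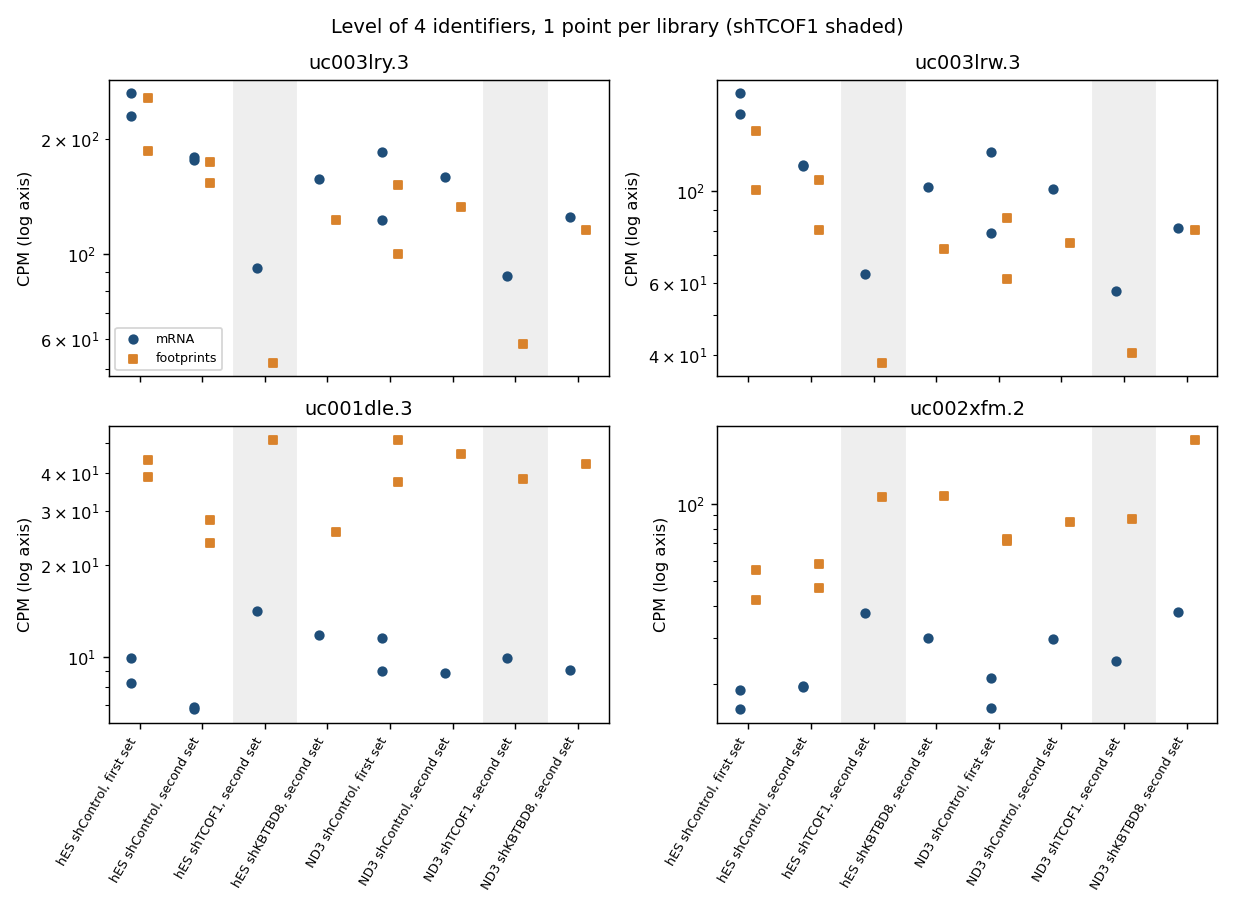
The level of the 4 identifiers in CPM (log axis) is plotted with 1 point per library, mRNA as circles and footprints as squares, for the controls of both sets and the second-set knockdowns at hES and ND3. The shaded shTCOF1 libraries are the lowest for uc003lry.3 and uc003lrw.3 at both stages, and for uc001dle.3 and uc002xfm.2 they lie above the controls at hES but not in both assays at ND3.

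Without gene names, transcripts were grouped by what they did in the first set, which shares no library with the comparison. Whether the sets share cultures is not stated. Transcripts of neural conversion had medians near 0. Of 955 measured transcripts that rose at least 2-fold from hES to ND3 in first-set control cells, the median mRNA difference with shTCOF1 was -0.02 (log2), and 28.3% lay above and 33.8% below both controls, against 32.9% and 32.8% of all transcripts. Of 1349 that fell during conversion, the median was -0.01, with 32.8% above and 33.2% below.

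A conversion score, the mean log2 CPM of the induced less that of the repressed transcripts, placed the shTCOF1 library with the undifferentiated controls. The score covers every tested member, without the minimum of 50 counts. These were 1915 induced and 1644 repressed in mRNA, and 1848 and 1615 in footprints. In mRNA it was -2.55 and -2.49 in the controls and -2.46 in shTCOF1, while the shKBTBD8 library stood at -1.85. The difference of shTCOF1 from the control mean was 0.06, and the SD of the controls 0.04 (n = 2). In footprints the score was -2.77 and -2.90 in the controls, -2.72 in shTCOF1 and -2.34 in shKBTBD8, a difference of 0.12 beside a control SD of 0.09. The shTCOF1 score was above those of both controls and below that of shKBTBD8 in both assays. Over members with a mean count of at least 100, however, the mRNA difference of shTCOF1 from the control mean was -0.0027. With groups from changes of at least 4-fold it was 0.17, and against replicate 2 or 1 alone 0.026 or 0.085, with 0.18 or 0.058 in footprints. The first-set hES controls stood at -2.75 and -2.65 in mRNA and the first-set shKBTBD8 libraries at -2.86 and -2.79, below them, unlike the second-set shKBTBD8 library. At ND3 the order was the other way, with 1.02 in the control and 0.86 in shTCOF1 for mRNA, and 0.32 and 0.20 for footprints.

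Transcripts that respond to KBTBD8 depletion during conversion gave small medians with shTCOF1 at hES, and larger ones at ND3. The second-set shKBTBD8 library at hES, against the same controls, had mRNA medians opposite in sign to that response. They were 0.23 (log2) for the group lowered by shKBTBD8 at ND3 in the first set and -0.23 for the raised group. In footprints they were 0.07 and -0.23. Of 145 measured transcripts that fell with shKBTBD8 at ND3 in the first set, 69 (47.6%) lay below both hES controls in mRNA with shTCOF1 and 29 (20%) above, against 32.8% and 32.9% of all. Their median was -0.13 against control replicate 1 and -0.16 against replicate 2 (log2), while the controls differed by 0.00. At ND3 the same group had a median shTCOF1 difference of -0.58 in mRNA and -0.49 in footprints. In footprints the hES median over 72 of them was -0.04, with 30.6% below and 29.2% above. The 293 that rose with shKBTBD8 had an mRNA median of 0.03 at hES, with 37.9% above and 29.7% below both controls. At ND3 the raised group had a median of 0.63 in mRNA and 0.75 in footprints. No member of either group passed edgeR for mRNA at hES. At an unadjusted p under 0.05, 18 of the 308 tested in the lowered group were lower and 7 higher, and 28 of the 458 tested in the raised group were higher and 15 lower, beside 344 lower and 280 higher of all 17665.

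The last group holds 220 transcripts whose footprints relative to mRNA fell by ND6 in first-set controls. In mRNA 123 of 216 (56.9%) lay above both hES controls and 41 (19.0%) below, with medians of 0.14 against replicate 1 and 0.04 against replicate 2, and with 0.09 (log2) between the controls in size. In footprints 106 of 217 (48.8%) lay above and 17 (7.83%) below, but the median was 0.02 against replicate 1 and 0.31 against replicate 2, which itself was lower than replicate 1 by 0.26. The median of footprint over mRNA CPM (log2) was -0.31 in shTCOF1, between the controls, paired by replicate number, at -0.24 and -0.61. The median footprint difference of this group therefore lies mostly against control replicate 2. Whether the transcripts at 0 in that library have a part in it was not tested.

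**Figure D4:**
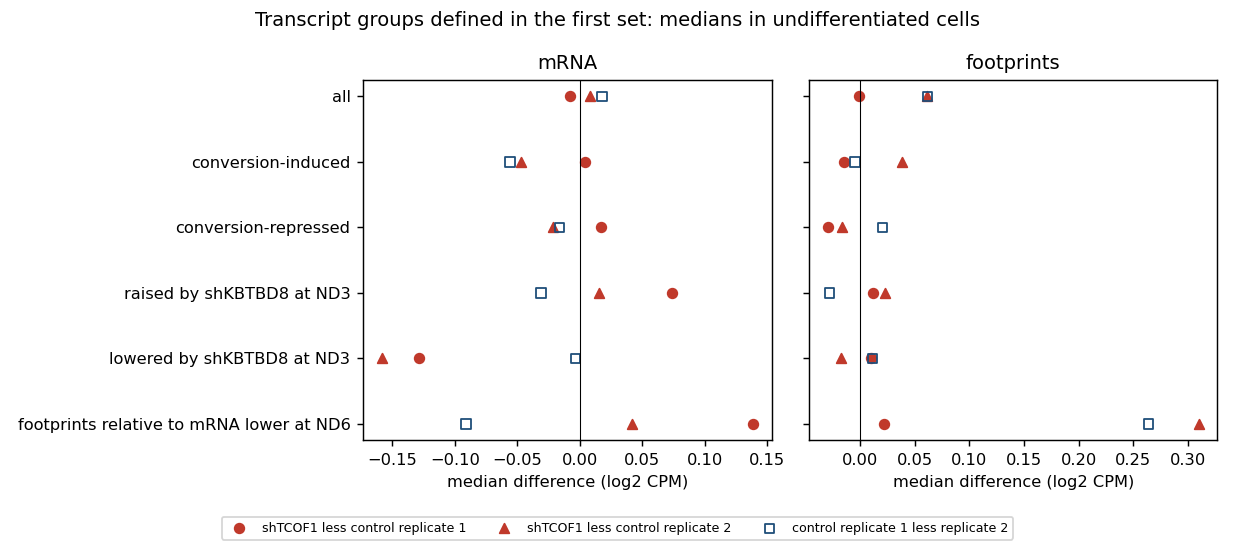
For each group of transcripts defined in the first set, and for all transcripts, the median log2 CPM difference at hES is plotted between shTCOF1 and control replicate 1 (circles), shTCOF1 and replicate 2 (triangles) and the 2 controls (squares). Only the mRNA medians of the group lowered by shKBTBD8 lie below -0.10 against both controls, and the footprint median of the last group is 0.31 against replicate 2 and 0.02 against replicate 1.

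Transcripts were also divided into 5 classes of about equal size by the deposited length value. In footprints the median shTCOF1 difference was 0.10 in the shortest class (6 to 182), then 0.07, 0.05 and 0.01, and -0.06 (log2) in the longest (770 to 6888). Against replicate 1 alone the medians ran from 0.05 to -0.07 and against replicate 2 from 0.15 to -0.06, so the order held with each control. The controls differed in the same order by 0.11 to 0.03. Footprint levels lower than both controls by 1.5-fold numbered 57, 65, 60, 82 and 108 from the shortest to the longest class, and higher ones 67, 54, 51, 55 and 31. In mRNA the medians ran from 0.03 to -0.03. These medians are small beside the SD of 0.47 across transcripts.

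**Figure D5:**
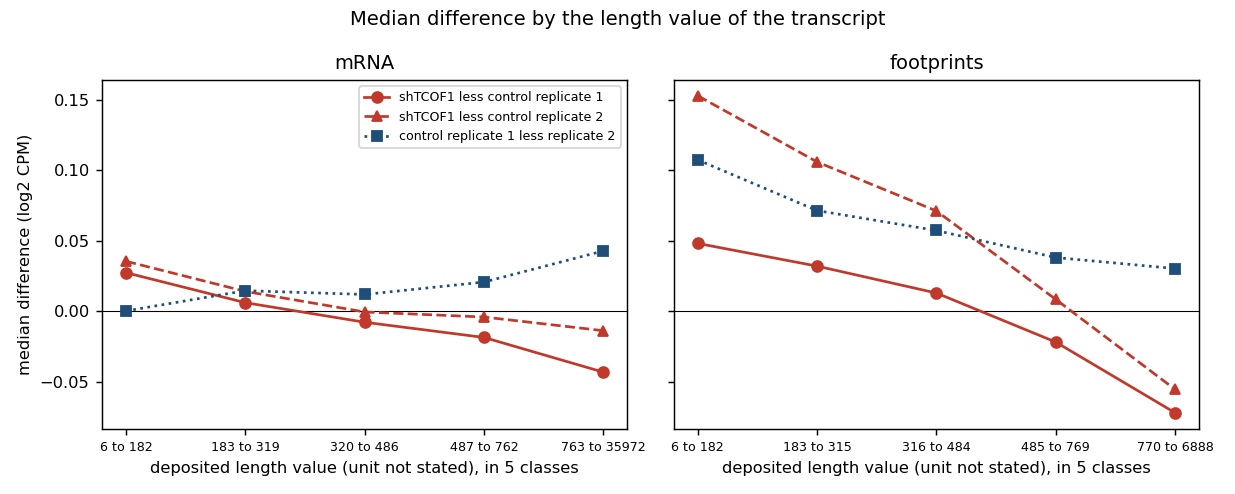
The median log2 CPM difference is plotted for each of 5 classes of the deposited length value, with shTCOF1 against each control in red and the controls against each other in blue. In footprints both red lines decline, from 0.05 and 0.15 in the shortest class to -0.07 and -0.06 in the longest, while the blue line declines from 0.11 to 0.03.

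A direct comparison with KBTBD8 depletion asked where the hairpins differed at hES, with 1 library each. In mRNA 8 transcripts were higher and 68 lower with shTCOF1 than with shKBTBD8, 76 of 17665 (0.43%; edgeR, adjusted p under 0.05). The 68 had a median of 1.00 CPM in shTCOF1, 1.09 and 1.05 CPM in the controls and 9.12 CPM in shKBTBD8. The shKBTBD8 library was above both controls in 68 of 68, while shTCOF1 was above both in 24 and below both in 27. Conversion-induced transcripts made up 49 of the 68, against 10.8% of all tested, and this is the shKBTBD8 library with the higher conversion score, which the first-set shKBTBD8 libraries do not have. The 8 higher ones had a median of 42.9 CPM in shTCOF1, 34.0 and 36.2 CPM in the controls and 17.8 CPM in shKBTBD8. In footprints 5 transcripts, all lower with shTCOF1, passed (0.0287% of 17436). These 5 had a median of 1.38 CPM in shTCOF1 and 20.2 CPM in shKBTBD8. At a minimum mean count of 100 the mRNA count was 12 (5 higher and 7 lower) and the footprint count 0. That minimum was taken over the hES shTCOF1 and shControl libraries only. It therefore removes transcripts that are high only with shKBTBD8, and the lower counts do not show how abundant the transcripts are in that library.

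Against the same controls, shKBTBD8 differed by 2-fold from both in mRNA for 59 higher (0.395%) and 5 lower (0.0334%) transcripts, beside the 8 and 8 of shTCOF1. In footprints the counts were 56 (0.518%) and 261 (2.41%), beside 21 and 88. The shKBTBD8 footprint library held 6.56 M counts with 9.73% of transcripts at 0, against 7.93 M and 6.71% in shTCOF1. The part of this in the counts was not tested. By edgeR, shKBTBD8 differed from these controls in mRNA for 143 higher and 4 lower transcripts (0.832%) and in footprints for 18 and 1 (0.109%). The knockdowns share the controls, so these counts stand side by side and were not tested against each other.

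The last comparison asked whether the effect of shTCOF1 differed between hES and ND3. At ND3, with 1 library against 1, edgeR called 4 higher and 9 lower transcripts in mRNA (0.0736%) and 5 higher ones in footprints (0.0287%). In mRNA 1 of 17665 transcripts passed (0.00566%; edgeR, adjusted p = 0.0185). Its level at hES was 3.89 CPM with shTCOF1 against 0.436 and 1.03 CPM in the controls, and at ND3 2.89 CPM against 7.58 CPM. In footprints 4 of 17436 passed (0.0229%). In these 4 the ND3 control library held 0, 0, 1 and 0 counts where shTCOF1 held 45, 70, 145 and 108, while the hES levels were 15.3 to 35.9 CPM with shTCOF1 and 16.1 to 43.0 CPM in the controls. In that ND3 control library 13.2% of all transcripts had no count.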

How the data were processed

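The deposited values are whole-number read counts per transcript row, 63691 rows per library, with a length value in a unit that is not stated. Per the submitters' processing notes, hg19, CASAVA 1.8, Bowtie2 2.0.6 and TopHat2 2.0.7 were used. For the counting program, strand and treatment of reads with several matches, a statement is not given in the sources used here. Per the labels' protocols, footprints were made with RNase I and ribosome pelleting.

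Rows that averaged 10 counts or more over 46 libraries and lay within 20 rows of each other were joined where chi-square per degree of freedom was below 2, each group being read from its row of highest total. The 17680 groups are called transcripts, a choice made after the files were seen. Levels are log2 CPM with TMM factors and a prior count of 2. Tests used edgeR 4.0.16 in R 4.3.3 (quasi-likelihood F-test after filterByExpr, two-sided, with Benjamini-Hochberg adjustment over all transcripts and a threshold of 0.05) over all libraries of an assay with 1 group per set, stage and hairpin, which leaves 9 residual degrees of freedom, or 18 over both assays. The DESeq2 version was 1.42.0. The scripts were tested on simulated data. First-set groups hold transcripts changed by 2-fold or more at an adjusted p under 0.05, in a fit of that set alone. The control pairs differed by more than sampling noise (chi-square per degree of freedom 11.5 in mRNA and 19.0 in footprints).

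Members, lists and rules were chosen with earlier results of these data known. As 0 identifiers matched the gene tables, gene lists and cell type markers were not applied. The rule for named genes takes those called, or else the largest by the same limits in mRNA with the same sign in footprints. As 0 were called, the call was dropped, and the limits were applied in both assays.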

Additional observations from a re-analysis of the deposited data

Results flagged for a closer look

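With 1 shTCOF1 library per stage and 1 ND3 control, the hES and ND3 effects of shTCOF1 differed by the test of the difference itself for 1 transcript in mRNA and for 4 in footprints (edgeR, adjusted p under 0.05). In mRNA the difference was 3.64 ± 0.48 (log2 ± SE), from 2.25 at hES to -1.39 at ND3, at levels of 0.436 to 7.58 CPM. In footprints each of the 4 goes with 0 or 1 counts in the ND3 control library, against 45 to 145 with shTCOF1, so the size of the fitted differences depends on how the fit treats 0 and is not given. The part of that library in the result was not tested.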

How the results depend on the processing

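The knockdown has 1 library per assay, so no test here measures its own spread. No paired analysis was possible because the knockdown has 1 library per assay and no replicate number. Transcripts called for shTCOF1 against shControl, 0 in each main result, numbered in mRNA 6 by DESeq2, 1 in the second set alone, 2 with the controls of both sets and 0 to 1 without 1 control. In footprints they numbered 1 by DESeq2, 1 with the controls of both sets and 0 to 66 without 1 control, and for footprints relative to mRNA 3 by DESeq2 and 0 to 427 without 1 control. Counts at least 2-fold beyond both controls, 16 in mRNA and 109 in footprints, became 179 and 630 at 1.5-fold, 45 and 640 at a mean count of at least 10, 4 and 7 at 200, 38 and 343 over every deposited row, and 74 to 111 and 250 to 1344 against a single control. The stage difference, 1 in mRNA, gave 0 at a mean count of at least 100, 7 by DESeq2, 9 over every row and 1 to 2 without 1 control. In footprints, 4 became 0 in the second set alone, 9 over every row and 2 to 5 without 1 control. For shTCOF1 against shKBTBD8, 76 in mRNA became 12 at a mean count of at least 100, 120 by DESeq2 and 251 over every row, and 5 in footprints became 0, 11 and 8 in that order and 0 in the second set alone. The minimum of 100 was taken over the hES shTCOF1 and shControl libraries only, so it removes transcripts that are high only with shKBTBD8. The conversion score difference, 0.06 in mRNA, was -0.0027 at a mean count of at least 100 and 0.17 with 4-fold groups. In footprints, 0.12 became 0.013 with groups from shKBTBD8 libraries, an alternative chosen after seeing the data. Relative to mRNA, the footprint change of uc001dle.3 was -0.05 and ran from -0.20 to 0.066 without 1 control library, and that of uc002xfm.2 was 0.09 and ran from -0.086 to 0.24. The causes were not tested. RLE factors, no filter and a prior count of 0.5 moved none of these counts by over 1.5 times.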
